A study of Drosophila melanogaster with 2 samples.

Results

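The genes described here encode the translation initiation, elongation and release factors of Drosophila melanogaster. They were taken from the Ensembl annotation as the protein-coding genes outside chromosome 4 whose symbol begins with eIF, eEF or eRF and a factor number, which gave 52 of 13888 such genes. A further matching gene, eIF4G1, lies on chromosome 4 and was left out by that rule. The data are peak lists from chromatin immunoprecipitation and sequencing (ChIP-seq) of MBD-R2-eGFP, a GFP-tagged subunit of the NSL histone acetyltransferase complex, in the fly strain MBD-R2-GFP. Both biological replicates came from whole embryos aged 0 to 24 h, and an antibody against GFP was used. There is 1 group and no treatment, mutant or second stage to compare with. Whole embryos mix many cell types, so binding in few cells and weak binding in many cells cannot be told apart.

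Initiation factors bring the initiator tRNA, the messenger RNA and the ribosomal subunits together. eIF2 carries the initiator tRNA, eIF2B recharges eIF2 with GTP, eIF3 holds the small subunit, and eIF4 factors recognise and unwind the capped end of the message. Elongation factors then deliver aminoacyl-tRNAs and move the ribosome, and release factors end synthesis at the stop codon. Several of the genes have paralogs in the fly, of which eIF4E3 and eIF4G2 are known for roles in the male germ line.

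MBD-R2 peaks stood at most translation factor genes. In the main list, which the authors made from both replicates with an irreproducible discovery rate (IDR) no higher than 0.01, 39 of the 52 genes had a peak summit no more than 500 bp from an annotated transcription start site (TSS). This is 75%, beside 44.1% of the 13888 protein-coding genes off chromosome 4, and such genes are called bound. The signal of a bound gene is the authors' value for its strongest peak of this kind, whose scaling and sequencing depth are not given, so it ranks peaks within a list. The bound factor genes had a median signal of 169 and ranged from 59.8 at eIF3l to 1140.3 at eIF6, while the 6126 bound genes in all had a median of 171. The factor genes were thus bound more often than genes in general, at a median signal close to that of other bound genes. Of the 39 bound genes, 18 lay above the median of all bound genes, and 5 lay above the signal of 368 that marks the top 10%. Those 5 were eIF6, eIF2Balpha, eIF3h, eIF2Bdelta and eIF3a.

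**Figure D1:**
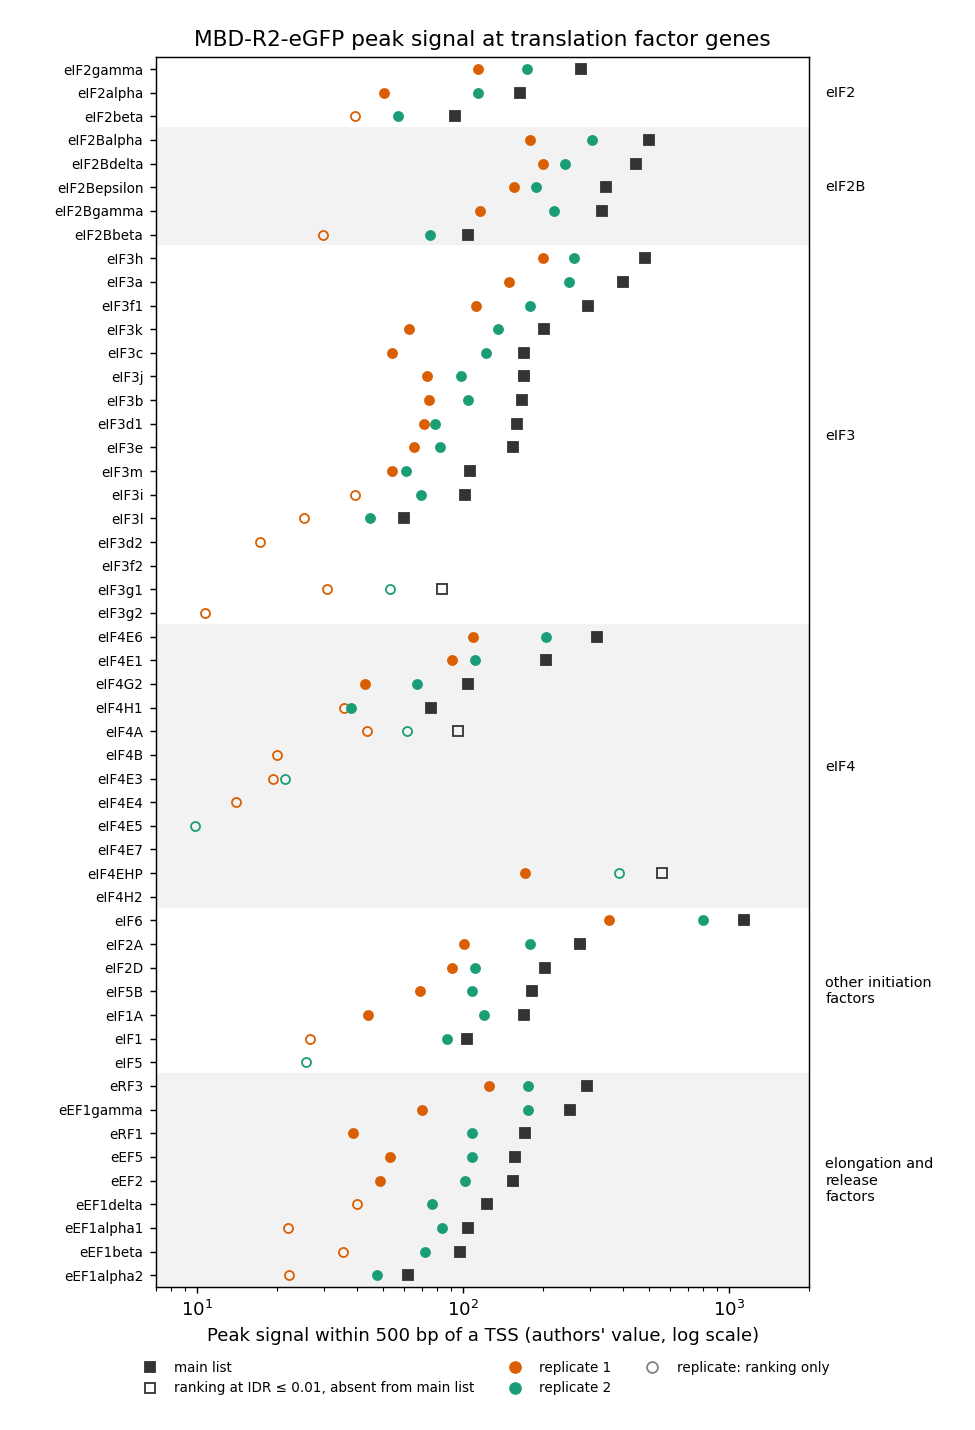
Peak signal near a TSS of each of the 52 translation factor genes, on a log axis, in the main list (squares), replicate 1 and replicate 2 (circles), with genes grouped by factor. Open symbols are values found only in a ranking, and joint ranking values are drawn only at an IDR of at most 0.01. Rows without a symbol had no value in either replicate and no joint ranking peak passing that threshold. eIF6, at 1140.3 in the main list, lies highest in both replicates.

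The share bound differed between the factors, beside 44.1% of all protein-coding genes off chromosome 4. All 3 eIF2 subunits and all 5 eIF2B subunits were bound, with median signals of 164 and 345. Among eIF3 subunit genes 12 of 16 were bound (median 168), and among eIF4 genes 4 of 12 (median 155). The other initiation factors had 6 of 7 bound (median 192), and the elongation and release factors 9 of 9 (median 154). Most genes without a peak were paralogs: 3 of 11 paralogs were bound (27.3%), against 36 of the 41 remaining genes (87.8%).

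Promoter sequence is shown for a strongly bound gene of each factor group and for unbound genes of different kinds, so that motifs can be read at the start that carries the peak. For bound genes each stretch is placed on the TSS nearest the strongest summit, and for unbound genes on the first TSS. It runs from 240 bases before that TSS through 20 bases from it, in the direction of transcription, and was read from the RefSeq genome in build dm6. Capitals mark matches to the DRE (TATCGATA), the E-box CAGCTG, the TATA box or the TCT initiator. eIF2gamma (chr3R:15263439-15263698, minus strand) has 3 DREs, eIF2Balpha (chr3R:29935869-29936128, minus strand) an E-box, and eIF4E6 (chr3R:29027155-29027414, minus strand) a DRE and a TATA box. Their stretches stand at the first TSS. For the other bound genes the peak lay at an inner TSS: eIF3h (chr2L:5052761-5053020, minus strand), with an E-box, 314 bp inside the first TSS, eIF2A (chr3L:21824725-21824984, plus strand), with a DRE, 225 bp inside, and eRF3 (chr2L:12436450-12436709, plus strand), with no match, 2238 bp inside. The unbound genes are the paralog eIF4E7 (chrX:1162370-1162629, minus strand), with a TATA box, and eIF3g1 (chrX:2610317-2610576, minus strand), which has a TCT initiator.
eIF2gamma: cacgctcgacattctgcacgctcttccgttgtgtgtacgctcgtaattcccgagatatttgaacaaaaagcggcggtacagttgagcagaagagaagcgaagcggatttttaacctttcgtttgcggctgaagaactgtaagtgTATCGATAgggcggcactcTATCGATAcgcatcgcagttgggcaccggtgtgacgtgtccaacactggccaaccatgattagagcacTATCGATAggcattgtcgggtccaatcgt
eIF2Balpha: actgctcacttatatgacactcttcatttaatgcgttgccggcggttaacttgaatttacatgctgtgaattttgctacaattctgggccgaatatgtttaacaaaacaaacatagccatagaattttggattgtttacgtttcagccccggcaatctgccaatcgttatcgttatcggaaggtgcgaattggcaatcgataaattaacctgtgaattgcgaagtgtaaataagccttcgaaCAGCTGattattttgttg
eIF3h: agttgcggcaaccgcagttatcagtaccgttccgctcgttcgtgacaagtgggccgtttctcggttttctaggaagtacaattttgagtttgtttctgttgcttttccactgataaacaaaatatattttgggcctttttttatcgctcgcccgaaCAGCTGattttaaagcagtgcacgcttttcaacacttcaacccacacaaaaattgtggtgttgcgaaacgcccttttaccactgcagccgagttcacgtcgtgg
eIF4E6: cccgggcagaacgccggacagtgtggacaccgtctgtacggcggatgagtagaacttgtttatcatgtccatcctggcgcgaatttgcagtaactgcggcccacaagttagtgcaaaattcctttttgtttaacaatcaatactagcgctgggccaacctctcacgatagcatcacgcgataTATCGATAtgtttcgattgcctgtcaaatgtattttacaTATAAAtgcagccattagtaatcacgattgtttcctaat
eIF2A: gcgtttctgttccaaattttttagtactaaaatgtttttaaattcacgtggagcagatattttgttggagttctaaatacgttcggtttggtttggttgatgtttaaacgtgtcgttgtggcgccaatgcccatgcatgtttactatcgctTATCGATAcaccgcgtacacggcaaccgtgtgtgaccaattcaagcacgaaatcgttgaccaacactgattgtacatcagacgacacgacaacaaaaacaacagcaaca
eRF3: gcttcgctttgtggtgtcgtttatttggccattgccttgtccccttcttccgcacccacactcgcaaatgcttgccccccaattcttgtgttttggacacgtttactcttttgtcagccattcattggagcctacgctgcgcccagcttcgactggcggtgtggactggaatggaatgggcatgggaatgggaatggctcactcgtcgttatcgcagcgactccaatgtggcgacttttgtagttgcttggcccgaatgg
eIF4E7: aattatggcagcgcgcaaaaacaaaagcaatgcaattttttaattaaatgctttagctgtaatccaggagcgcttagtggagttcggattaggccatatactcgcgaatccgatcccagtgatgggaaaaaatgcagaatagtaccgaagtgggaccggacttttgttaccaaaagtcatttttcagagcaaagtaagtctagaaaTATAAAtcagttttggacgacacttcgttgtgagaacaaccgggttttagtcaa
eIF3g1: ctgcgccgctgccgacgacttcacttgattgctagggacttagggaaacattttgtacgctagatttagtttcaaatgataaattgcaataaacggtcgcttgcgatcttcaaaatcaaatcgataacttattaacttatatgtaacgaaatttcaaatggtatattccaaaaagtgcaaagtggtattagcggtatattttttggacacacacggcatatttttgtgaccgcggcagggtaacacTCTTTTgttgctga

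The eIF2 genes stood in the order gamma, alpha, beta in both replicates and in the main list. eIF2gamma, the GTP-binding subunit, had a signal of 114 in replicate 1, 174 in replicate 2 and 278 in the main list. Its summit lay 54 bp upstream of the TSS, 54 bp from that of Su(var)3-9 and 40 bp from that of Set. These genes share the peak, and the summit was nearest to Set. eIF2alpha, the subunit phosphorylated in stress responses, had 50.5 in replicate 1, 113 in replicate 2 and 164 in the main list, with its summit 2 bp inside the TSS. eIF2beta had 56.9 in replicate 2 and 93.0 in the main list, and its summit lay 226 bp downstream. The thresholded list of replicate 1 had no peak there, and its ranking gave 39.1.

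The eIF2B genes had the highest median of any factor. eIF2Balpha, a regulatory subunit that senses phosphorylated eIF2, had 179 in replicate 1, 305 in replicate 2 and 498 in the main list, rank 202 of the 6126 bound genes. eIF2Bdelta, of the same regulatory group, had 200.4, 241 and 445 in the same order, and eIF2Bepsilon, the catalytic subunit, had 155, 188 and 345. These 3 genes each have a divergent neighbour whose TSS lies 90 bp (Vps13B), 58 bp (roh) and 107 bp (Ocrl) away. The summit was nearer to Vps13B and to Ocrl than to the eIF2B gene, while at eIF2Bdelta it lay 25 bp from its own TSS and 33 bp from that of roh. eIF2Bgamma had no other gene on its peak and had 116, 219 and 333. eIF2Bbeta was the lowest, with 104 in the main list, 74.9 in replicate 2 and a ranking value of 29.7 in replicate 1. The 5 subunits of the complex thus spanned signals from 104 to 498.

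Among eIF3 genes, eIF3h and eIF3a led. eIF3h had 200.3 in replicate 1, 260.2 in replicate 2 and 481 in the main list, with a summit 36 bp upstream of its inner TSS and 27 bp from that of senju. eIF3a, the largest scaffold subunit, had 149, 250.1 and 399, and its summit lay 43 bp upstream and 27 bp from the TSS of the divergent gene CG1074. eIF3f1 had 112, 178 and 294, with its summit 5 bp downstream of the TSS and no other gene on the peak. In each of these 3 genes replicate 2 was above replicate 1. The next 6 genes lay close together in the main list, between 155 and 202. They were eIF3k (202), eIF3c (169.7), eIF3j (169), eIF3b (166), eIF3d1 (159) and eIF3e (155). The low end held eIF3m at 106, eIF3i at 102 and eIF3l at 59.8. eIF3i and eIF3l had peaks in the thresholded list of replicate 2 (69.3 and 44.5) and none in that of replicate 1, where the ranking gave 39.0 and 25.2. The core scaffold subunits a, b and c were all bound, and so were the subunits k and l, which bind each other, at 202 and 59.8.

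The eIF4 genes were the least often bound in the main list, at 33.3% beside 44.1% of all genes, and most of the unbound ones are paralogs. With ranking peaks at an IDR of at most 0.01 counted, 6 of the 12 were bound, beside 44.9% of all genes. eIF4E1, the general cap-binding protein, had 90.5 in replicate 1, 111 in replicate 2 and 205 in the main list, with the summit 32 bp upstream. eIF4H1, a helper of the helicase eIF4A, had 75.8 in the main list, 37.7 in replicate 2 and a ranking value of 35.5 in replicate 1. The remaining bound eIF4 genes were the paralogs eIF4E6 and eIF4G2. eIF4B, which stimulates eIF4A, had no peak in the main list or the ranking made from both replicates, and a value of 20.03 in the ranking of replicate 1 alone. It lies at 27842669 to 27858271 on 3L, beyond the last main peak of that arm, which ends at 27279511, and its nearest main summit was 579 kb away. The ranking held 35 peaks beyond that point, and 0 of them passed the IDR threshold.

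The other initiation factors included the strongest gene. eIF6, which keeps the large ribosomal subunit from joining too early, had 354 in replicate 1, 795 in replicate 2 and 1140.3 in the main list, rank 10 of 6126. Its peak spanned positions 23850179 to 23850570 of chromosome arm 2R in dm6, with the summit 94 bp upstream of the TSS and no other gene on it. eIF2A had 100.5, 178 and 275, and eIF2D had 90.6, 111 and 202. Both encode factors known for delivering tRNA outside the main eIF2 route. eIF5B, the GTPase of subunit joining, had 68.5, 108 and 182. For eIF1A and eIF1, which act in start codon recognition, the strongest summit belonged by distance to a divergent neighbour. That of eIF1A (44.0, 119.6 and 169) lay 219 bp upstream of its TSS and at the TSS of Vps39, and that of eIF1 (a ranking value of 26.5, then 87.3 and 103) lay 349 bp upstream and 32 bp from RpL28. With summits nearer to another gene set aside, eIF1A had a second peak of 76.0 at 17 bp from its TSS, and eIF1 had none. eIF5, which triggers GTP hydrolysis by eIF2, was not bound. It had a ranking value of 25.7 in replicate 2 and none in replicate 1, and its peak of 41.7 in the joint ranking lay 410 bp upstream, 84 bp from the TSS of exd, with an IDR of 0.0448.

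All elongation and release factor genes were bound. eRF3, the release factor GTPase, had 125 in replicate 1, 175 in replicate 2 and 292 in the main list, with its summit 227 bp upstream of the nearest of its 3 TSSs. eEF1gamma had 70.1, 176 and 251, and eRF1, which reads the stop codon, had 38.6, 108 and 171. The eRF1 summit lay 453 bp from its TSS and 40 bp from that of the divergent gene Rbbp5, and a weaker summit of 69.7 lay 94 bp from the TSS of eRF1 itself. The remaining 6 genes lay between 62.0 and 156 in the main list. eEF5, which helps ribosomes past stalling sequences, had 52.8, 108 and 156, and the translocase eEF2 had 48.6, 102 and 154. The exchange factors eEF1delta and eEF1beta had 123 and 97.2 in the main list, and eEF1alpha1, which carries aminoacyl-tRNA to the ribosome, had 104 there, 83.3 in replicate 2 and a ranking value of 21.9 in replicate 1. Of the 9 genes, 5 were in the thresholded list of replicate 1 and all 9 in that of replicate 2, beside 33.4% and 43.5% of all genes.

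Ubiquitous forms and paralogs could be compared in 6 families, in which the paralogs are not replicates of each other. For eIF3d, eIF3d1 had 71.1 in replicate 1, 78.3 in replicate 2 and 159 in the main list, and eIF3d2 had a ranking value of 17.2 in replicate 1 and no peak in replicate 2. For eIF3f, eIF3f1 was at 294 and eIF3f2 had no peak in either replicate. For eIF3g neither form was bound, and eIF3g2 had 10.7 in the ranking of replicate 1 and no peak in replicate 2. In the eIF4E family, eIF4E3, eIF4E4, eIF4E5 and eIF4E7 had no main peak beside 205 at eIF4E1. eIF4E3 had 19.2 and 21.3 in the rankings of the replicates, eIF4E4 had 14.0 in replicate 1, eIF4E5 had 9.83 in replicate 2, and eIF4E7 had no value in either. eIF4H2 likewise had no peak in either replicate, beside 75.8 at eIF4H1. In the joint ranking of both replicates, 7 of the 8 unbound paralogs had a peak near a TSS, and eIF4E4 had none. These peaks had signals of 39.6 at eIF3d2, 27.2 at eIF4E7, 22.3 at eIF4E3, 20.7 at eIF4E5, 10.1 at eIF4H2, 9.64 at eIF3g2 and 8.30 at eIF3f2. Their IDRs ran from 0.625 to 0.872, far from the threshold of 0.01.

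At the 3 bound paralogs the summit had features of position that were also seen at other bound genes. The call of eIF4E6 was lost when summits nearer to another gene were left out, and that of eEF1alpha2 at the first TSS only. The call of eIF4G2 was kept in both settings. eIF4E6 had 109 in replicate 1, 205 in replicate 2 and 318 in the main list, above the 205 of eIF4E1. Its summit lay 79 bp upstream and 17 bp from the TSS of the divergent gene CG1951. eIF4G2 had 42.9, 67.3 and 105, and its summit lay equally far, at 117 bp, from the TSS of CG33111. eEF1alpha2 had 62.0 in the main list, 47.3 in replicate 2 and a ranking value of 22.2 in replicate 1, below the 104 of eEF1alpha1. Its summit lay 7 bp from an inner TSS, and its first TSS had no peak. The placing of reads shared between similar paralogs is not described in the labels or headers.

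**Figure D2:**
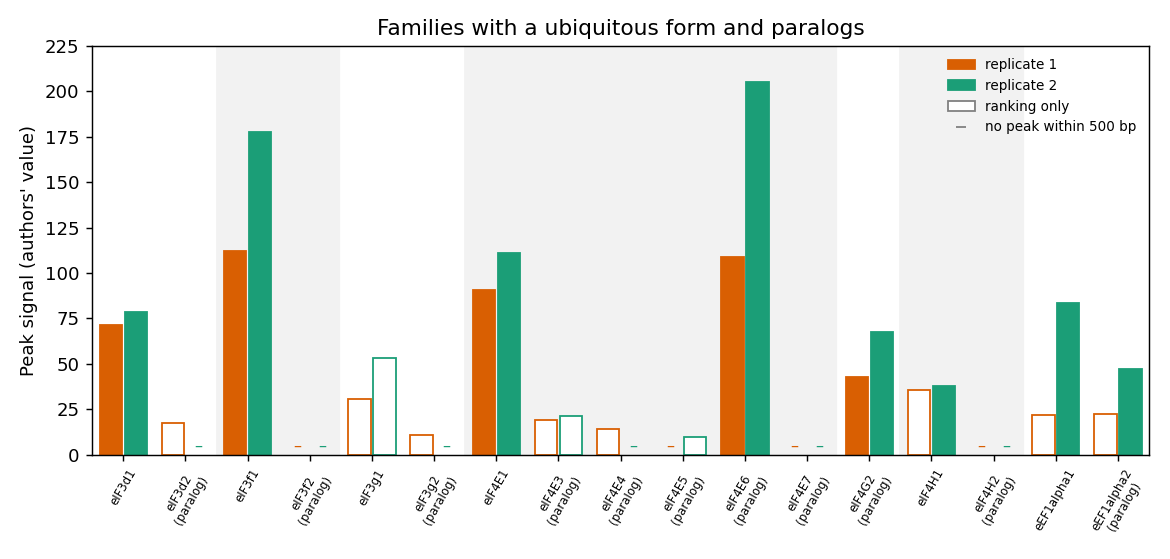
Peak signal of ubiquitous forms and paralogs in each replicate, as bars from 0 in the authors' own units, with open bars for values found only in the ranking and dashes where no peak lay near a TSS. eIF4E6, at 109 and 205, stands above its ubiquitous form eIF4E1, at 90.5 and 111, while eIF3f2, eIF4E7 and eIF4H2 have no value in either replicate.

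Of the 5 unbound genes that are not paralogs, 3 had peaks that passed the IDR threshold in the ranking from which the main list was drawn, yet are absent from that list. eIF4EHP, a cap-binding repressor of translation, had a ranking signal of 561, in a peak at 24108866 to 24109389 on 3R, with its summit 227 bp upstream of the TSS and 149 bp from that of the divergent gene CG18428, which was thus nearer. It was in the thresholded list of replicate 1 at 171, and the ranking of replicate 2 gave 386. eIF4A, the helicase, had a ranking signal of 95.7 with an IDR of 0.00113, and 43.6 and 61.3 in the rankings of the replicates. eIF3g1 had 83.4 with an IDR of 0.00148, and 30.8 and 53.2. The ranking held 7756 peaks at an IDR of at most 0.01, of which 212 are absent from the main list, and 132 of these lie on 3R. The deposited file notes name a further input for thresholded lists that rankings lack, but do not say what it holds. Its part in the absence of these peaks was not tested, so their signals are less certain than those of main peaks. Across the genome 113 genes had such a peak and no other, which is 1.46% of the genes without a main peak. With these peaks counted, 42 of the 52 factor genes were bound, beside 44.9% of all genes, and the 10 left were the 8 paralogs, eIF4B and eIF5.

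The replicates gave the genes a similar order but differed in how many they held. The thresholded list of replicate 1 held 30 of the 52 genes (57.7%, beside 33.4% of all genes), and that of replicate 2 held 39 (75%, beside 43.5%). The 10 bound genes missing from replicate 1 were eIF2beta, eIF2Bbeta, eIF3i, eIF3l, eIF4H1, eIF1, eEF1alpha1, eEF1alpha2, eEF1beta and eEF1delta. Their main signals ran from 59.8 to 123, and the lowest main signal of a bound gene that replicate 1 held was 105. Over the 29 bound genes in both lists, the value in replicate 2 was above that in replicate 1 at all 29, with a median ratio of 1.59 and a range of 1.10 to 2.79. The same ratio over 4469 genes had a median of 1.55, close to that of the factor genes. Whether the authors scaled the lists for depth is not stated, and the values of a gene may come from different peaks in the replicates. Spearman's rho between the replicates was 0.78 over these 29 genes and 0.80 over all genes, as a description. Among elongation and release factors the 5 genes in both lists had a median ratio of 2.10, from 1.40 to 2.79. The conservative list held 37 of the 52 genes (71.2%, beside 39.8%).

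Summits of the factor genes lay close to the TSS. Of the 39 bound genes, 29 had the summit no more than 100 bp from a TSS (74.4%), beside 62.2% of all bound genes, and the median distance was 54 bp against 67 bp. The summit lay upstream in 20 genes and downstream in 19, while over all bound genes 3887 lay upstream and 2202 downstream. Both groups included genes with a divergent neighbour, such as eIF2Balpha, eIF3a and eRF1 upstream and eIF3l and eIF4H1 downstream. Both also included genes without one, such as eIF6 upstream and eIF2beta downstream. In eIF2beta, eIF3l and eIF4H1 the summits lay 190 to 226 bp inside the gene.

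**Figure D3:**
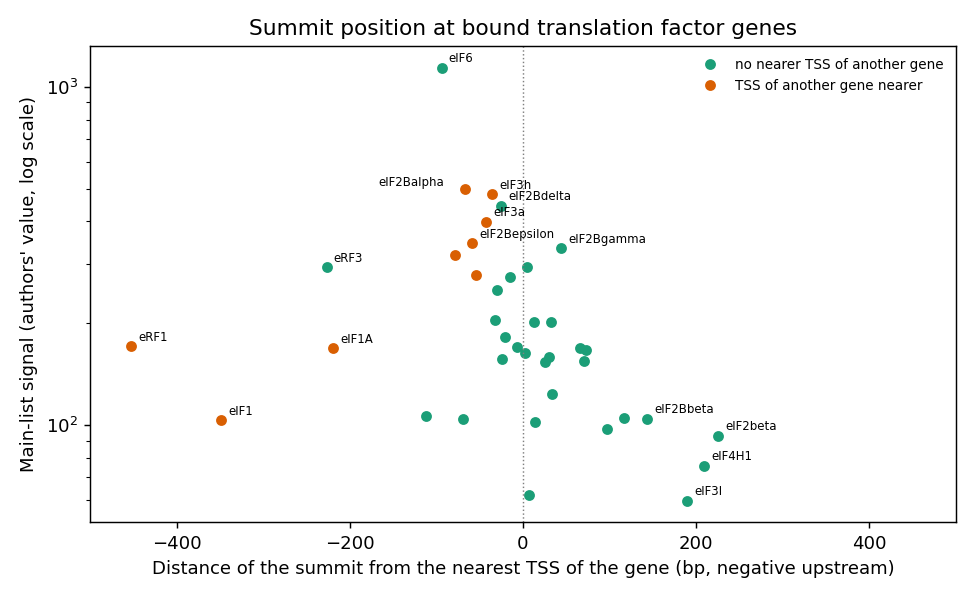
Distance from the nearest own TSS to the summit, in bp, against main-list signal on a log axis, with 1 point for each bound factor gene, negative values upstream and a second colour where another gene's TSS is nearer. Most summits, 29 of 39, lie no more than 100 bp from a TSS, and the farthest, at 453 bp upstream, is that of eRF1.

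Peaks shared with a neighbour carried the higher signals. The window of another gene's TSS held the same summit at 12 of the 39 bound genes (30.8%), beside 50.9% of all bound genes. For 9 of them the other gene was the nearer (23.1%, beside 24.1%). The 12 shared peaks had a median signal of 298 in the main list and 181 in replicate 2. The 27 that were not shared had a median of 164 in the main list and 105 in replicate 2. The list of replicate 1 held 11 of the 12 (91.7%) and 18 of the 27 (66.7%), whose medians there were 114 and 72.0. Over all bound genes that list held 83.8% with a shared and 65.1% with an unshared peak, with medians of 88.2 and 69.6. In the main list the medians over all bound genes were 206 for 3116 shared and 144 for 3010 unshared peaks, the same order with a smaller gap. Which gene such a peak serves was not tested.

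The promoters were searched for known core promoter motifs from 250 bases before to 50 bases after the first TSS. These were the DRE TATCGATA, the M1BP core GGTCACACT, the E-box CAGCTG and the GAGA repeat GAGAGAG on both strands. TATAAA was searched on the sense strand from 40 to 15 bases before the start. The TCT initiator was CTTT with C or T on each side, and the initiator was TCAGT or TCATT followed by C or T. Both were searched on the sense strand with their first base up to 10 bp from the start. A match describes letters and is not a bound site. The strongest summit lay inside the searched window at 21 of the 39 bound genes (53.8%), beside 62.3% of all bound genes, so for the remaining 18 the letters are those of a start or stretch without it. Matches to different motifs overlapped in 0 cases, and 28 of the 52 promoters had at least 1 match.

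The DRE, the site of the factor Dref, was the commonest match, in 15 of the 52 promoters (28.8%), beside 9.36% of all promoters and 17.9% of those of bound genes. Cytosolic ribosomal protein promoters had it in 28 of 87 cases (32.2%). It was in 14 of the 41 genes that are not paralogs and in 1 of the 11 paralogs, eIF4E6. eIF2gamma had 3 copies, starting 96, 77 and 9 bases before the TSS, as the capitals in its sequence show. eIF2A is not among the 15, since its DRE lies before the inner TSS. In the 13 bound genes with a DRE, the summit lay a median of 24.5 bp from the nearest copy, against 70.5 bp over 1098 bound genes with one. The shares with a summit up to 100 bp from a copy were closer, at 69.2% and 63.2%. The median signal of the 13 genes was 171, against 163 for bound factor genes without a DRE. Over all bound genes the medians with and without it were 174 and 169, and over bound ribosomal protein genes 123 and 134.

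The TCT initiator, known from ribosomal protein genes, was in 8 promoters (15.4%), beside 2.73% of all promoters and 44 of 87 cytosolic ribosomal protein promoters (50.6%). The 8 genes were eIF3e, eIF3f1, eIF3g1, eIF3i, eIF4A, eIF5B, eEF1alpha1 and eEF1delta, and none of the paralogs had it. The match of eEF1delta began 10 bases before the TSS. Those of the other genes began at bases 4 to 11, counting the TSS as the first base, so no match covered the annotated TSS itself. The 6 bound genes with a TCT initiator had a median signal of 139, against 169.7 for the 33 without. Ribosomal protein genes had 115 with it and 149.5 without, and all bound genes 144 and 171. The thresholded list of replicate 1 held 3 of the 6 and 26 of the 33. Over all bound genes it held 103 of 176 with the motif and 4468 of 5950 without. The unbound genes with this motif, eIF3g1 and eIF4A, are among the 3 with a passing ranking peak absent from the main list, and eIF4EHP, the remaining one, has no match. The match of eIF4A lies near its first TSS, while its ranking peak lies at an inner TSS.

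The E-box CAGCTG was rarer than in promoters in general, in 4 of 52 (7.69%) beside 17.7%, and 25.1% of those of bound genes. It was also rare in cytosolic ribosomal protein promoters, in 8 of 87 (9.20%). The 4 were eIF2Balpha, eIF2Bdelta, eIF2Bgamma and eIF3h, all of high signal, with a median of 463 against 166 for the remaining bound factor genes. Over all bound genes the medians with and without this motif were 212 and 160.0. In these 4 genes the summit lay a median of 125 bp from the nearest E-box of the searched window, against 65.5 bp over 1536 bound genes with one. The eIF3h copy counted here starts 85 bases before its first TSS, while its summit lies 278 bp inside that TSS. The E-box in its printed sequence is another copy, before the inner TSS, and is not counted here. The M1BP core was in eIF2alpha, eIF3i and eIF3l (5.77%, beside 6.04%). The TATA box was in 3 of 11 paralogs, eIF4E6, eIF4E7 and eIF4H2, and in 0 of the 41 remaining genes, beside 8.13% of all promoters and 2.06% of those of bound genes. The GAGA repeat was found only in eIF3g2 and the initiator only in eEF1alpha2, both paralogs.

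**Figure D4:**
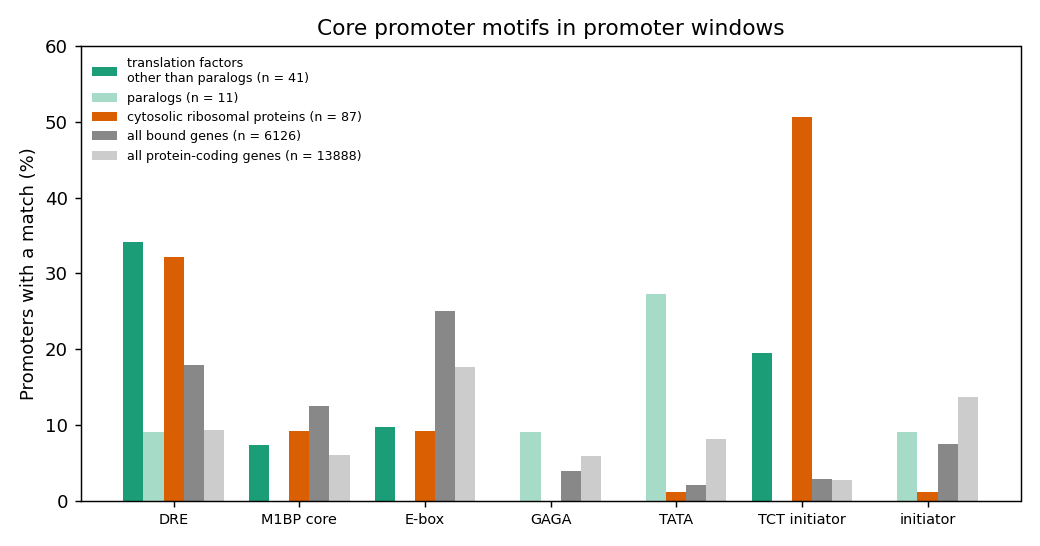
Percent of promoters with a match to each core promoter motif, as bars from 0, for factor genes other than paralogs, paralogs, cytosolic ribosomal protein genes, all bound genes and all protein-coding genes off chromosome 4. The TCT initiator stands at 50.6% in ribosomal protein genes and 2.73% in all genes, and the TATA box at 27.3% in paralogs.

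Other genes of protein synthesis give the setting, beside the 44.1% of all genes that were bound. Cytosolic ribosomal protein genes were bound in 71 of 87 cases (81.6%) with a median signal of 130.1, and aminoacyl-tRNA synthetase genes in 34 of 35 (97.1%) with a median of 205. The 9 mitochondrial translation factor genes found in the annotation were all bound, with a median of 230.4. They ran from mEFTu1 at 64.8 and mEFG1 at 78.5 to mIF3, at 167 in replicate 1, 285 in replicate 2 and 451 in the main list. The median of the cytosolic factors, 169, lay between those of the ribosomal proteins and the synthetases.

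**Figure D5:**
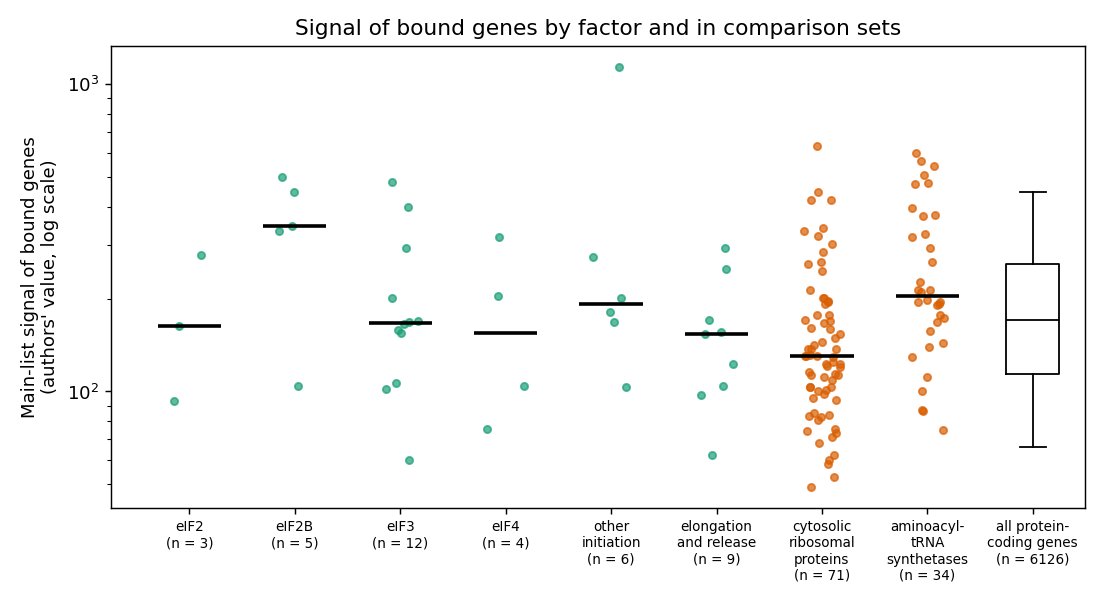
Main-list signal of bound genes on a log axis, with 1 point for each gene and a line at the median, for each factor group, cytosolic ribosomal proteins and aminoacyl-tRNA synthetases, beside a box of all bound protein-coding genes (median, quartiles, whiskers from percentile 5 to percentile 95). The eIF2B genes have a median of 345 and the ribosomal protein genes one of 130.1, with 171 for all bound genes.

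Partners and regulators of the factors were bound in 23 of 31 cases (74.2%, beside 44.1% of all genes), with a median of 116. pelo, which rescues stalled ribosomes together with HBS1, had 116 in replicate 1, 197 in replicate 2 and 308 in the main list, and HBS1 had 179 in the main list, with CG12025 nearer to the summit. The eIF2alpha kinases PEK and Gcn2 had 208 and 88.3, and PPP1R15, the phosphatase subunit that reverses their mark, had 90.3. S6k, a kinase of the TOR pathway, had 271, with kri nearer to the summit. Thor, the inhibitor of eIF4E1, had 67.5, and was in the list of replicate 2 only. The 8 unbound genes were crc, Paip2, cup, nero, eEFSec, Lk6, Pdcd4 and kra. Of these, nero, Lk6 and kra had IDR-passing peaks in the ranking (242, 88.7 and 164) that are absent from the main list.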

How the data were processed

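MBD-R2-eGFP ChIP-seq peak lists from 2 biological replicates of 1 group were analysed. Per the labels, the replicates are separate biological samples and the build is dm6. Aligner, peak caller and depth: not given in the sources used here. Signal is the authors' own value per peak, and the deposited lists were not rescaled between replicates here. In the deposited lists the score is the IDR on a scale up to 1000, and at least 830 after thresholding. The −log10 of the IDR in the rankings was deposited by the authors.

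Calls joined summits to TSSs of Ensembl release 115 in a window of 500 bp, and were tested on simulated data (Python 3.11.15, pandas 2.3.3, numpy 2.4.6, matplotlib 3.10.9). Where a replicate's thresholded list had no peak, its ranking value is given as such. Promoter windows were cut from the RefSeq genome in dm6 at Ensembl starts, since a promoter table was not used here. Replicate values were read at the strongest summit up to 500 bp from a TSS in that replicate's own thresholded list. It need not be the main peak. For bound genes missing from that list, the ranking peak overlapping the main peak was used. For unbound genes missing from it, the strongest ranking peak near a TSS was used. Members, gene lists and motifs were chosen with earlier results of these data known, so no enrichment test was made and no p-value is given. Of the listed genes, 31 of 35 translation control and 9 of 12 mitochondrial symbols matched the annotation. The rule for full values named the 3 strongest bound genes of each factor, each paralog and its ubiquitous form, and each unbound gene. It gave promoters, at the start nearest the peak, for the leading gene of each factor outside 1 chromosome arm and for 2 unbound genes. Alternatives were the conservative list, a stricter IDR of 0.001, windows of 250 and 1000 bp, the first TSS only, leaving out summits nearer to another gene, each replicate alone and the rankings.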

Additional observations from a re-analysis of the deposited data

How the results depend on the processing

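Percentages in brackets here are the shares of all genes called the same way. The count of 39 bound genes (44.1%) was 37 in the conservative list (39.8%) and 33 at an IDR of at most 0.001 (35.7%). It was 38 with a window of 250 bp (39.5%) and 39 with 1000 bp (47.5%). It was 38 at the first TSS only (42.1%) and 32 without summits nearer to another gene (35.7%). With a replicate left out, it was 39 without replicate 1 (43.5%) and 30 without replicate 2 (33.4%). Any ranking peak gave 50, but the share of all genes was not computed for it, so counts with any ranking peak lack a comparison. Ranking peaks at an IDR of at most 0.01, an alternative chosen after seeing the data, gave 42 (44.9%). By factor, eIF2B fell to 3 of 5 without summits nearer to another gene, and with any ranking peak eIF4 rose to 10 of 12, eIF3 to 16 of 16 and paralogs to 10 of 11. With 1 replicate left out, elongation and release factors ranged from 5 to 9 and ubiquitous forms from 3 to 5, the lower values without replicate 2. The median signal ranged from 82.3 without replicate 2 to 108 without replicate 1, on lists with another scale. The stricter IDR lost eIF2beta, eIF3i, eIF3l, eIF4H1, eEF1alpha2 and eEF1beta, and the first TSS lost eEF1alpha2. The cause of these shifts was not tested. No paired analysis was possible because the series holds 1 group. The unknown depth limits what the absence of a peak can show, and 2 replicates give no test of a single gene.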

Other observations

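Apart from the promoter summits, 5 factor genes held main-list summits inside the gene and more than 500 bp from any of their own TSSs. The share of all genes with such summits was not computed, so whether this count is usual is not known. eIF5B held 3, with signals of 183, 65.9 and 54.7, and the strongest of them was close to the 182 at its promoter. eIF4EHP held a peak of 139 at 9765 bp from its TSS. The weaker ones were 76.9 in eRF3, 51.0 in eIF3l and 11.9 in eEF2, the last no more than 500 bp from a TSS of CG2225.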
